A study of Mus musculus with 12 samples.

Results

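The genes described here encode the proteins of the mitochondrial ribosome (symbols starting with Mrpl for the large and Mrps for the small subunit) and the Timm and Tomm proteins that carry newly made proteins into mitochondria. The members were picked by their names, as every non-control probe whose gene name in the scanner files of the 12 h arrays began with Mrpl, Mrps, Timm or Tomm followed by a number. The rule found 61 probes for 53 genes among 20280 probes tested, namely 33 probes for 29 large-subunit genes, 15 probes for 13 small-subunit genes and 13 probes for 11 import genes. The subunit was assigned by symbol.

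Mitochondria keep a small genome that encodes core subunits of the respiratory chain, and the mitochondrial ribosome is the machine that translates it. All of its proteins are encoded in the nucleus, made in the cytosol and imported, together with most other mitochondrial proteins, through the Tomm pore of the outer membrane and the Timm translocases of the inner membrane. The enterocytes of the small intestine burn glutamine and other fuels in their mitochondria to pay for absorption and for the steady renewal of the epithelium.

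The series measured mRNA in the whole small intestine of male FVB mice, 6 weeks old, that were fed or had been without food for 12, 24 or 72 h. Each of the 12 arrays compared 1 pool of 2 mice, labelled with the dye Cy3, with a reference pool of fed mice labelled with Cy5, so that each time point had 3 pools of different mice. For fed pool 3 the labels disagree on which fed mice the reference held. The labels name no mutation, and the dyes were not swapped. Animals without food were kept in metabolic cages, under an infrared lamp from 24 h on, and pooling hides the spread between single mice. A level below is the log ratio, log2(Cy3/Cy5), in 1 pool after normalization, and a change is the difference between time point means of that log ratio with its standard error (SE). A member is called lower or higher where limma's adjusted p, corrected over all probes, was under 0.05.

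Of the 61 member probes, 58 to 61 were well above background in Cy3 on each array and none was saturated, and their median signal averaged 8.39 on the log2 scale against 7.03 for all probes. The files of the fed and 72 h arrays share 1 layout and Cy5 signal range (array medians of 124 to 142 units), whereas those of the 12 and 24 h arrays share another (393 to 627 units). The 72 h against fed and the 24 h against 12 h comparisons therefore stay within a layout, while in the other comparisons layout and time cannot be told apart. The reference should be the same on every array, yet its Cy5 signal differed from the fed arrays at 21.9% of all probes at 12 h and at 20.4% at 24 h, against 0.00% at 72 h (870 probes at an unadjusted p under 0.05). Among the members 17 probes were called different in Cy5 at 12 h, 7 at 24 h and 0 at 72 h, where 3 had an unadjusted p under 0.05. The 12 h arrays also agreed least among themselves, with correlations of their Cy3 signals of 0.879 to 0.899 over probes, against 0.921 to 0.981 within the other time points. The enterocyte markers Vil, Anpep, Apoa1 and Apoa4 were well above background on all 12 arrays.

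After 72 h of fasting the genes for the mitochondrial ribosome and for protein import were mostly lower. At this time 17 of 61 member probes were called lower (27.9%, against 5.80% of all probes) and 1 was called higher (1.64%, against 4.80%). The median change over all members was -0.46 on the log2 scale, compared with 0.01 over all probes, and 47 of the 61 had a change below 0. All 3 fasted pools lay below all 3 fed pools for 33 members (54.1%, against 20.6% of all probes). With Cy3 alone, which leaves out the reference, 18 members were called lower (29.5%, against 4.59%), among them 14 of the 17 called on the log ratio. The count of 17 became 10 without fed pool 1, 10 without fed pool 3, 8 without 72 h pool 1, 10 without 72 h pool 3 and 29 without 12 h pool 3, which enters only through the shared estimate of the spread. With arrays only centred on their median it was 26, and the share of lower calls among all called probes went from 54.7% to 68.3%.

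**Figure D1:**
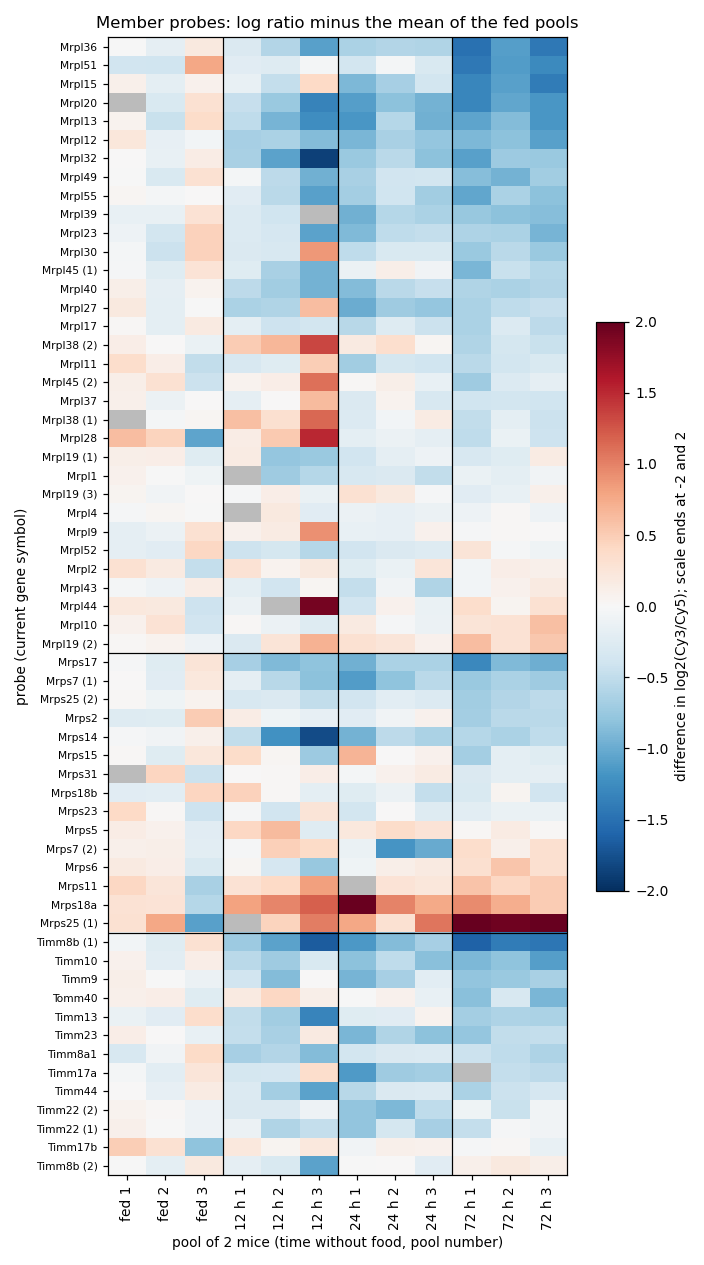
Log ratio of each of the 61 member probes (rows, by current gene symbol, with 1 as the brightest of several probes) in each of the 12 pools (columns), minus the mean of the fed pools for that probe. Blue is below and red above the fed mean, grey marks spots left out as outliers, and black lines separate time points and the large-subunit, small-subunit and import genes. Most rows are blue at 72 h, where the medians of the 3 pools were -0.59, -0.37 and -0.43.

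Timm8b, a small chaperone that carries hydrophobic proteins across the space between the mitochondrial membranes, had the largest fall of the import genes. Its brightest probe had log ratios of 0.09, -0.09 and 0.45 in the fed pools and of -1.47, -1.25 and -1.29 in the 72 h pools. The groups did not overlap, and the change was -1.49 ± 0.23 (SE, n = 3 and 3; adjusted p = 0.0013), or 2.81-fold lower. The 12 h pools read -0.57, -0.92 and -1.52 with the same probe, the 24 h pools -1.0, -0.72 and -0.52, so that every fasted pool was below every fed pool.

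In the large subunit 11 of 33 probes, each for a different gene, were called lower at 72 h and 0 higher (1 had all its fasted pools above the fed pools), with a median change of -0.47. Mrpl36, among the smallest proteins of the large subunit, was at -0.07, -0.24 and 0.13 in the fed pools and at -1.55, -1.16 and -1.49 at 72 h. This was a 2.53-fold fall (log2 change -1.34 ± 0.20 (SE, n = 3 and 3), adjusted p = 0.001), and it was the largest among the large-subunit genes. Mrpl36 was also lower at 72 h than at 24 h, when its pools read -0.69, -0.65 and -0.66.

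Mrpl51, a subunit found in mitochondrial but not in bacterial ribosomes, was unlike Mrpl36 in its timing. Its log ratios were 0.00044, -0.02 and 1.15 in the fed pools, 0.15, 0.12 and 0.34 at 12 h, 0.02, 0.33 and 0.07 at 24 h, with -1.06, -0.74 and -0.90 at 72 h. The 12 and 24 h pools lay within the range of the fed pools and only the 72 h pools lay below it, with a change of -1.28 ± 0.25 (SE, n = 3 and 3; adjusted p = 0.0056). Fed pool 3 was well above the other fed pools for this gene.

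Mrpl15, which has a bacterial counterpart, was called lower than in the fed pools at 72 h alone. It was at 0.09, -0.20 and 0.08 in the fed pools, -0.16, -0.49 and 0.39 at 12 h, -0.91, -0.67 and -0.37 at 24 h, with -1.32, -1.09 and -1.40 at 72 h. The 12 h pools overlapped the fed pools and the 24 h pools did not, but only the 72 h change was called (-1.26 ± 0.22 (SE, n = 3 and 3), adjusted p = 0.0022, 2.40-fold lower). Mrpl20, another subunit with a bacterial counterpart, was at -0.16 and 0.45 in the fed pools that could be used and at -1.16, -0.89 and -1.02 at 72 h. Its spot in fed pool 1 was left out as an outlier, and the change of -1.17 ± 0.25 (adjusted p = 0.0098) rests on 2 fed pools.

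Mrpl12, a stalk protein that also binds the mitochondrial RNA polymerase, read 0.76, 0.37 and 0.49 in the fed pools and -0.36, -0.28 and -0.55 at 72 h, 1.91-fold lower (adjusted p = 0.0021). Mrpl39 was 1.75-fold lower (adjusted p = 0.0082). The other large-subunit genes called lower at 72 h were Mrpl13, Mrpl32, Mrpl40, Mrpl49 and Mrpl55, with falls between 1.52-fold for Mrpl40 and 2.03-fold for Mrpl13. In that order their calls were lost in 4, 11, 8, 6 and 5 alternatives (other processing or 1 array left out). The calls of Mrpl12 and Mrpl39 were lost in 0. Among those that missed the threshold were Mrpl23 at -0.73 (adjusted p = 0.073), Mrpl10 at 0.38 and Mrpl52 at 0.05.

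The small subunit, grouped by symbol, was more mixed. At 72 h 3 of 15 probes were called lower and 1 higher, and the median change was -0.21. The higher call and 1 of the lower calls came from different probes of the same gene, Mrps25. The 15 also include Mrps18a (1.65-fold higher at 72 h, not called), whose protein has been placed in the large subunit. Mrps17, a small-subunit protein with a bacterial counterpart, was at 0.04, -0.17 and 0.33 in the fed pools and at -1.23, -0.82 and -0.90 at 72 h. The groups did not overlap and the change was -1.05 ± 0.18 (SE, n = 3 and 3; adjusted p = 0.002), or 2.07-fold lower. No test of the difference between the subunits was made.

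**Figure D2:**
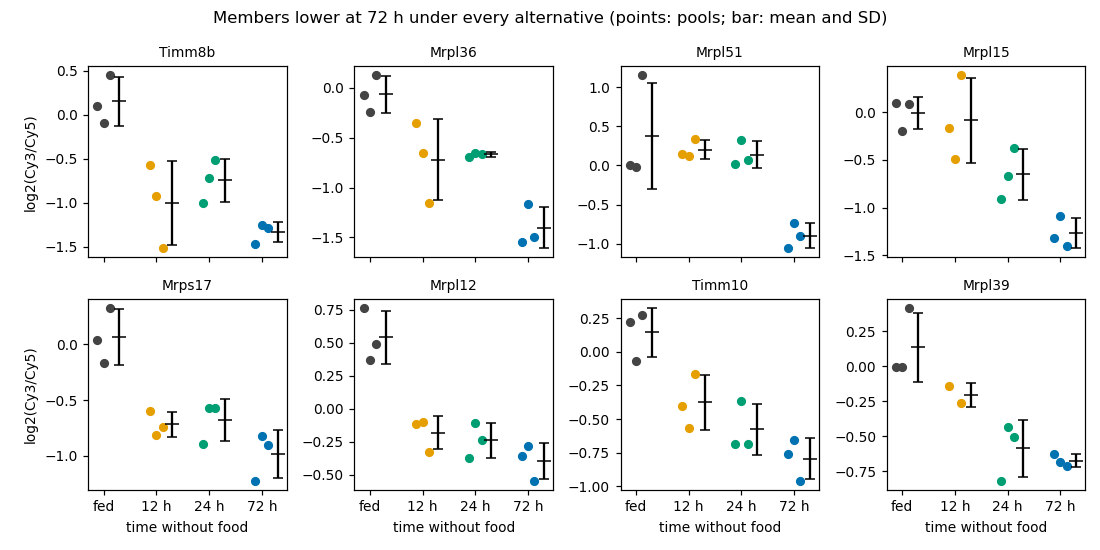
Log ratio in each pool (points) with the mean and SD (bars) at each time point for the 8 members that were called lower at 72 h under every alternative processing and with each array left out in turn. In all 8 panels the 72 h pools lie below the fed pools, with changes from -0.81 for Mrpl39 to -1.49 for Timm8b, while Mrpl51 at 12 and 24 h lies within the range of its fed pools.

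The windows before the start of 5 genes called lower at 72 h are shown because they differ in which known motifs they hold. RefSeq promoters (GRCm38; 250 bases before to 50 after the gene start, 300 in all) were found for 48 of the 53 genes. The motifs searched, on both strands, were GCGCATGCG for NRF1, CCGGAAGT for the ETS factors that include GABP, CACGTG for E-box factors and AAGATGGCG for YY1. The sequences run 5′ to 3′ on the gene's strand, with motif matches in capitals. The Mrpl39 window holds 1 NRF1 match on each strand, which overlap because the motif is nearly its own reverse complement. The Mrpl51 window holds 1 ETS match, that of Timm10 an ETS and an E-box match, that of Mrpl36 an E-box match and a YY1 match on the other strand, and the Timm8b window holds none of these letters.
Mrpl39 (chr16:84735195-84735494, minus strand): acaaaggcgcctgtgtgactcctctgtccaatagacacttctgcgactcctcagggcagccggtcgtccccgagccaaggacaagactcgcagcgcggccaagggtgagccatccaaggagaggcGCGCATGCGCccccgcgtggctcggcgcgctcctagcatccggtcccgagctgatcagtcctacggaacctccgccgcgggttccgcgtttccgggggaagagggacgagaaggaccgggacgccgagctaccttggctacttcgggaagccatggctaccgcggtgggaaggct
Mrpl51 (chr6:125191950-125192249, plus strand): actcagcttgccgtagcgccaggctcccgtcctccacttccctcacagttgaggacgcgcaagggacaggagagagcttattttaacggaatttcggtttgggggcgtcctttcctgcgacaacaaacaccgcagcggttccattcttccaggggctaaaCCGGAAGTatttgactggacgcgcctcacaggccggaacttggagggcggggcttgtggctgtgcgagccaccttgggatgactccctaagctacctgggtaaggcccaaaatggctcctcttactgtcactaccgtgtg
Mrpl36 (chr13:73330759-73331058, plus strand): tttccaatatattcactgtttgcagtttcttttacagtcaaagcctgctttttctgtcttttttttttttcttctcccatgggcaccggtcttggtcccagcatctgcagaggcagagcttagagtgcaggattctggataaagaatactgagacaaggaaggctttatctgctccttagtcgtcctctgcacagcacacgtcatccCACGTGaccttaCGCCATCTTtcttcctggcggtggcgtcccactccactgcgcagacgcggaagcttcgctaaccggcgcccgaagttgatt
Timm10 (chr2:84826771-84827070, plus strand): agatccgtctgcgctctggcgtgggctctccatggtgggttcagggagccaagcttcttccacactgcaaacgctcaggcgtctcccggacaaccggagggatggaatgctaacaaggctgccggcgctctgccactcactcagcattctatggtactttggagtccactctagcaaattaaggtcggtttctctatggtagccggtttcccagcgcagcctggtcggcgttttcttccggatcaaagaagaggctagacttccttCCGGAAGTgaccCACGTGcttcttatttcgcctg
Timm8b (chr9:50603651-50603950, plus strand): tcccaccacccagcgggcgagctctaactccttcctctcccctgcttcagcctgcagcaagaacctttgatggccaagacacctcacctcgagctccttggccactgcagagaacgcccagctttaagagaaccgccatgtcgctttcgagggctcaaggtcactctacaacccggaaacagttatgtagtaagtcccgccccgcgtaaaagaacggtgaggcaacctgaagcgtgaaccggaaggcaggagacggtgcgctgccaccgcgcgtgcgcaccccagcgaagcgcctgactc

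Over the 48 member genes with a promoter, the NRF1 letters were found in 7 (14.6%, against 1.95% of all 27025 genes with a promoter), the ETS letters in 6 (12.5%, against 4.31%), the E-box letters in 7 (14.6%, against 8.09%) and the YY1 letters in 4 (8.33%, against 1.64%). These promoters were also richer in G and C (median 58.3%, against 52.7% for all genes) and in CG steps (median 21.5, against 7). Of the 15 genes with a promoter and any probe called lower at 72 h (Mrps25, whose brighter probe was called higher, among them), 2 held the NRF1, 2 the ETS, 3 the E-box and 1 the YY1 letters. Of the other 33 members 5, 4, 4 and 3 did, and the differences were not tested. A match of this kind is a description of the sequence and no evidence of binding.

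Among the import genes, 12 of 13 probes had at 72 h a change below 0 and the median was -0.52, although only 3 probes were called lower. Some of the array's symbols for the small Timm chaperones have since been reassigned, and current symbols, set through the gene number in the files, are used here. The probe named Timm13a in the files is now Timm10, that named Timm10 is Timm9, that named Timm9 is Timm13, and that named Timm8a is Timm8a1.

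Timm10, which forms a chaperone complex with Timm9, was at 0.22, -0.07 and 0.27 in the fed pools, -0.68, -0.36 and -0.69 at 24 h and -0.76, -0.66 and -0.96 at 72 h. It fell 1.65-fold at 24 h (adjusted p = 0.019) and 1.91-fold at 72 h (adjusted p = 0.0032), with no fasted pool of either time above the lowest fed pool. Timm9 itself had changes of -0.41, -0.60 and -0.72 at 12, 24 and 72 h and missed the threshold each time (adjusted p = 0.051 at 72 h).

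Timm8a1 and Timm13 make up another small chaperone complex of the same space. Timm8a1 was at 0.04, 0.29 and 0.75 in the fed pools and at -0.30, -0.22 and -0.50 at 12 h, a fall of 1.62-fold (adjusted p = 0.025). Timm13 was at -0.01, -0.10 and 0.48 in the fed pools and at -0.36, -0.57 and -1.19 at 12 h, a fall of 1.78-fold (adjusted p = 0.027). Neither was called at 24 or 72 h. For Timm8a1 at 12 h the Cy3 change was 0.03 and the Cy5 change, that of the reference, 0.73.

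Timm23 and Timm17a form the channel of the translocase that takes in proteins with a cleavable leader. Timm23 was at 0.11, -0.02 and -0.18 in the fed pools and at -0.94, -0.63 and -0.86 at 24 h, 1.71-fold lower (adjusted p = 0.028). Timm17a was at 0.0029, -0.17 and 0.29 in the fed pools and at -1.10, -0.68 and -0.65 at 24 h, 1.80-fold lower (adjusted p = 0.027). Both sets of 24 h pools were clear of the fed pools, while at 72 h neither gene was called, Timm17a with 2 usable pools.

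Timm44, which anchors the import motor to that channel, was at 0.08, -0.10 and 0.22 in the fed pools and at -0.21, -0.61 and -1.0 at 12 h. It was 1.60-fold lower with an adjusted p of 0.042. The Timm44 call was lost in 16 alternatives, the authors' value table and Cy3 alone among them. Tomm40, the pore of the outer membrane and the only Tomm gene found, was at -0.05, -0.03 and -0.40 in the fed pools, 0.02, 0.25 and -0.04 at 12 h and -0.17, -0.07 and -0.31 at 24 h. It fell only at 72 h, to -1.0, -0.48 and -1.08, a change of -0.69 ± 0.18 (SE, n = 3 and 3; adjusted p = 0.028, 1.62-fold). That call was lost with the authors' value table, with Cy3 alone and without any of fed pools 1 and 2 and 72 h pools 1 and 3. Timm17b, a close relative of Timm17a, had changes between -0.05 and 0.16 at the 3 times. Its fed pools were widely scattered (SD 0.7, against 0.23 for Timm17a), which limits what these changes can show.

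After 12 h of fasting 13 of 61 member probes were called lower (21.3%, against 6.02% of all probes) and 2 higher (3.28%, against 4.90%). The median change was -0.21 and 42 members were below 0, with 21 (34.4%, against 16.8%) having all their fasted pools below all fed pools. With Cy3 alone only 4 members were called lower (6.56%, against 8.71% of all probes), and just 1 of the 13 was among them. In the 13 called members the median Cy3 change was -0.24 and the median Cy5 change 0.68, and 9 of them were called higher in the reference channel. For the 17 members called lower at 72 h the same medians were -0.85 in Cy3 and 0.07 in Cy5, and 0 of them were called higher in the reference (3 of all 61 members differed in it at an unadjusted p under 0.05 in limma).

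The count of 13 became 5 without fed pool 1, 2 without fed pool 3 and 8 without 12 h pool 2, and 4 with the authors' value table. When only the fed and 12 h arrays were fitted, limma called 0 members and 0 of all probes, although 17 members were lower at an unadjusted p under 0.05. With arrays only centred on their median, 19 members were called lower and 0 higher, so all calls were in 1 direction, against 13 of 15. The spread of the members around their fed means was widest in 12 h pool 3 (SD 0.87 over 60 probes, against 0.35 and 0.48 in the other 12 h pools), and without that pool 9 were called lower.

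**Figure D3:**
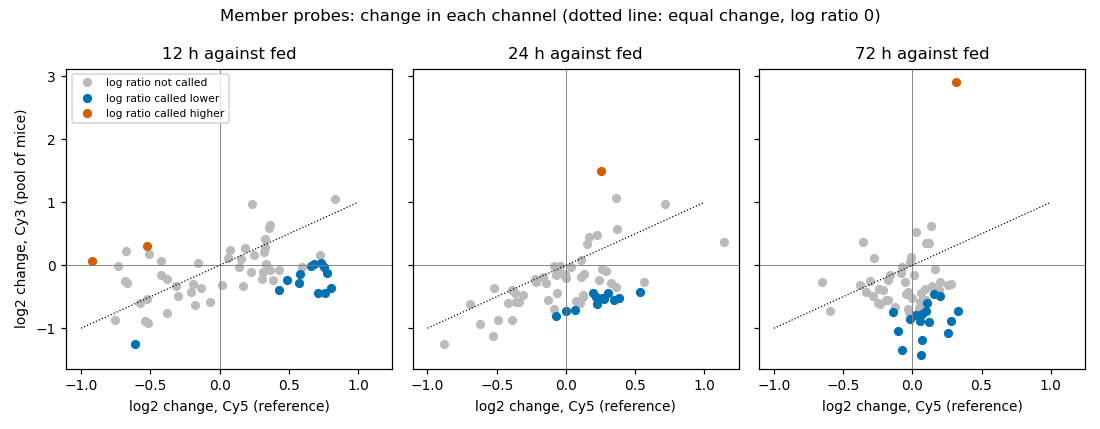
Change of each member probe in Cy5, the fed reference (horizontal axis, log2), and in Cy3, the pool of mice (vertical axis, log2), at 12, 24 and 72 h against fed; the dotted line marks equal change in both, where the log ratio does not move. At 12 h most blue points (called lower) lie right of 0, with a median Cy5 change of 0.68, whereas at 72 h they lie below 0 in Cy3 (median -0.85) and near 0 in Cy5 (median 0.07).

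Mrpl32, a large-subunit protein whose maturation needs cleavage by an inner-membrane protease, had the largest change at 12 h. It was at 0.13, -0.03 and 0.27 in the fed pools and at -0.52, -0.95 and -1.75 at 12 h, 2.29-fold lower (adjusted p = 0.011), and the 12 h pools differed from each other by more than the fed pools did. At 72 h it was at -0.97, -0.60 and -0.62 (adjusted p = 0.039). Mrps14, of the small subunit, was at 0.14, 0.08 and 0.25 in the fed pools and at -0.33, -1.06 and -1.63 at 12 h, 2.24-fold lower (adjusted p = 0.013). Its changes of -0.70 at 24 h and -0.57 at 72 h were not called.

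Mrpl13, of the large subunit, was called lower in its log ratio at all 3 times. It was at 0.16, -0.36 and 0.44 in the fed pools, -0.43, -0.85 and -1.17 at 12 h, -1.08, -0.49 and -0.88 at 24 h, with -0.97, -0.78 and -1.08 at 72 h. The changes were -0.89, -0.89 and -1.02, each with an SE of 0.23. Its Cy3 changes were -0.12, -0.55 and -0.90, of which only the last was called, and its Cy5 signal was called higher at 12 h (0.78). The 12 h pools of Mrpl20 read -0.32, -0.59 and -1.19 (adjusted p = 0.048), its 24 h pools -0.95, -0.68 and -0.80 (adjusted p = 0.032). The 3 comparisons share the same fed pools, so these values are not independent of each other.

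After 24 h of fasting 12 of 61 member probes were called lower (19.7%, against 6.26% of all probes) and 1 higher (1.64%, against 3.79%), with a median change of -0.31 and 49 members below 0. All fasted pools were below all fed pools for 28 members (45.9%, against 19.9%). With Cy3 alone 14 members were called lower (23.0%, against 13.4%), of which 4 were among the 12. The 12 were Mrpl12, Mrpl13, Mrpl20, Mrpl39, Mrpl40, Mrps17, Mrps7, Timm10, Timm17a, Timm22, Timm23 and Timm8b. The count became 0 without fed pool 1 (22 members then being lower at an unadjusted p under 0.05 in limma), 2 without fed pool 3, 2 without 24 h pool 1, 7 without 24 h pool 2, 19 without 12 h pool 1 and 22 without 12 h pool 3. It was 7 without background correction, 19 with only the fed and 24 h arrays and 26 with arrays only centred on their median, where the share of lower calls over all probes was 52.3% in place of 62.3%.

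Mrpl12 was at -0.37, -0.11 and -0.23 at 24 h, 1.72-fold lower than in the fed pools (adjusted p = 0.011), the lowest adjusted p of a member at this time. At 12 h it was at -0.12, -0.10 and -0.33. Mrps7, a head protein of the small subunit with a bacterial counterpart, was measured by a pair of probes. The brighter was at 0.09, -0.13 and 0.31 in the fed pools, -1.03, -0.71 and -0.45 at 24 h and -0.65, -0.55 and -0.63 at 72 h, and was called lower at both times (1.76-fold and 1.62-fold). The dimmer was at -0.13, -0.11 and -0.44 in the fed pools, -0.35, -1.41 and -1.23 at 24 h and 0.12, -0.12 and 0.09 at 72 h, with no call against the fed pools. The dimmer probe was not well above background in Cy3 on any fed array, so its fed levels are only bounds.

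Rises were few, and 2 of the 3 genes concerned belong to the small subunit by name. Mrps18a, whose protein has been placed in the large subunit of mammalian mitochondrial ribosomes despite its name, was at 0.40, 0.38 and -0.46 in the fed pools. It read 0.91, 1.09 and 1.30 at 12 h, 2.08, 1.10 and 0.87 at 24 h, with 1.05, 0.83 and 0.61 at 72 h, so that all fasted pools were above all fed pools. The changes were 0.99 ± 0.29 (adjusted p = 0.044), 1.24 ± 0.29 (adjusted p = 0.019) and 0.72 ± 0.29 (adjusted p = 0.14). At 12 h the Cy3 change was 0.07 and the Cy5 change -0.92, whereas at 24 h the Cy3 change was 1.49.

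Mrpl38, a large-subunit protein particular to mitochondria, was called higher at 12 h by 1 of its pair of probes. That probe was at -0.16, -0.29 and -0.43 in the fed pools and at 0.21, 0.37 and 1.05 at 12 h, 1.78-fold higher (adjusted p = 0.02). The brighter probe was at -0.24 and -0.17 in 2 usable fed pools and at 0.39, 0.12 and 0.94 at 12 h, 1.61-fold higher with an adjusted p of 0.071. At 72 h both had all their pools below the fed pools, with uncalled changes of -0.37 and -0.47.

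The probes for Mrps25, a small-subunit protein particular to mitochondria, went in opposite directions at 72 h. The brighter was at 0.24, 0.71 and -1.15 in the fed pools, 0.38 and 0.95 in 2 usable 12 h pools, 0.70, 0.23 and 0.99 at 24 h and 2.86, 1.87 and 2.84 at 72 h. The 72 h pools were far above every other pool, 6.02-fold higher than the fed pools (2.59 ± 0.41 (SE, n = 3 and 3), adjusted p = 0.0017). The dimmer was at 0.24, 0.14 and 0.29 in the fed pools and at -0.48, -0.37 and -0.31 at 72 h, 1.52-fold lower (adjusted p = 0.013). Both carry the same gene number in the files, the probe letters are not in the files, and which transcript each one detects was not tested.

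Among the other genes with several probes, agreement varied. For Timm22, the core of the translocase for carrier proteins, the dimmer probe was at 0.31, 0.27 and 0.15 in the fed pools and at -0.55, -0.65 and -0.26 at 24 h (1.66-fold lower, adjusted p = 0.016). The brighter was at 0.33, 0.21 and 0.12 and at -0.56, -0.13 and -0.45, with the same direction and an adjusted p of 0.052. The dimmer Timm8b probe, in contrast to the bright one, was at -0.05, -0.25 and 0.15 in the fed pools and at 0.05, 0.15 and 0.06 at 72 h, with a change of 0.14.

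Mrpl45 had probes of opposite sign at 12 h (-0.61 for the brighter, 0.44 for the dimmer) and of the same sign at 72 h (-0.64 and -0.39), with no call. Its brighter probe was at -0.01, -0.22 and 0.30 in the fed pools, -0.22, -0.62 and -0.93 at 12 h, -0.09, 0.13 and -0.04 at 24 h, with -0.89, -0.42 and -0.55 at 72 h. Its dimmer probe was at 0.02, 0.20 and -0.53 in the fed pools, -0.03, 0.03 and 1.01 at 12 h, -0.08, 0.02 and -0.25 at 24 h, with -0.81, -0.38 and -0.28 at 72 h. In both probes 12 h pool 3 was the pool farthest from the fed mean at that time. None of the 3 probes of Mrpl19 was called at any time, and the next to brightest was not well above background in Cy3 on any fed array. Its fed levels are therefore only bounds, and the other probes had changes of -0.13 and -0.09 at 72 h. At that time the brightest was at -0.24, -0.16 and 0.24, the next at 0.35, 0.03 and 0.27 and the dimmest at -0.37, -0.29 and -0.04, against fed ranges of -0.17 to 0.21, -0.36 to -0.19 and -0.21 to -0.09.

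**Figure D4:**
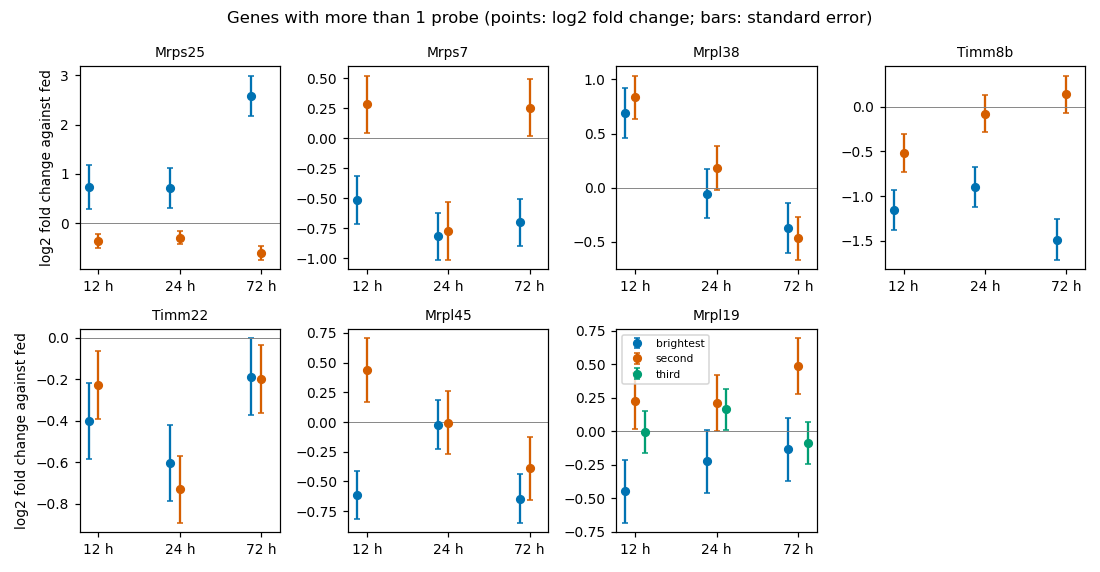
Change against the fed pools (log2, vertical axis) with its standard error at 12, 24 and 72 h for each probe of the 7 genes with more than 1 probe, coloured by brightness. The probes of Timm22 and Mrpl38 move alike, while those of Mrps25 part at 72 h (2.59 and -0.61), as do those of Timm8b (-1.49 and 0.14).

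Between fasted times few members were called. From 12 to 24 h 1 member was called lower, the dimmer Mrps7 probe (1.64%, against 1.69% of all probes), and 0 higher (against 1.23%; 3 were higher at an unadjusted p under 0.05 in limma). From 24 to 72 h 3 were called lower (4.92%, against 4.73%) and 2 higher (3.28%, against 5.87%), and from 12 to 72 h 6 lower (9.84%, against 4.92%) and 2 higher (3.28%, against 5.84%). Mrpl51, Mrpl36 and Tomm40 were lower at 72 h than at both earlier times, by 1.59-fold to 2.15-fold. Mrpl15 and both Mrpl38 probes were called lower at 72 h than at 12 h, by 2.09-fold to 2.47-fold, but not than at 24 h. Their mean levels were nevertheless lower at 72 h than at 24 h. Mrpl15 went from -0.65 to -1.27, the brighter Mrpl38 probe from -0.26 to -0.58 and the dimmer from -0.11 to -0.76. Mrps6, of the small subunit, was 1.68-fold higher at 72 h than at 12 h, and the bright Mrps25 probe was 3.62-fold higher than at 12 h and 3.68-fold higher than at 24 h. With 1 array left out the lower calls from 12 to 24 h became 4 (without 12 h pool 1) or 0 (without 12 h pool 3, 24 h pool 2, 24 h pool 3 or 72 h pool 3). Those from 24 to 72 h became 5 or 9 (without 12 h pool 1 or 3), 1 (without 24 h pool 1) or 0 (without 24 h pool 2 or 3 or 72 h pool 1 or 3). Those from 12 to 72 h ran from 4 (without 72 h pool 1 or 3) to 10 (without 12 h pool 1). The higher calls became 3 from 12 to 24 h (without 12 h pool 1), 0 from 24 to 72 h (without 24 h pool 2 or 72 h pool 1 or 3), and from 12 to 72 h 6 (without 12 h pool 1), 1 (without 12 h pool 2 or 3 or 72 h pool 2) or 0 (without 72 h pool 1 or 3). From 12 to 72 h there were 2 lower and 0 higher calls with median centring and 15 lower and 2 higher with Cy3 alone.

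The subunits were also split into those with a bacterial counterpart and those found only in mitochondria. Of the 31 probes of the former 8, 5 and 8 were called lower at 12, 24 and 72 h, with median changes of -0.11, -0.37 and -0.37. Of the 17 of the latter 1, 2 and 6 were called lower, with medians of -0.17, -0.21 and -0.39, and the difference between the classes was not tested. Members with brighter signals had larger changes, since the 30 probes above the members' median signal had a median of -0.63 at 72 h and the 31 at or below it a median of -0.22. Across the 61 members the correlation of signal and change was -0.24, against -0.04 over all 20272 probes tested at 72 h, and the 3065 probes on the array that were brighter than the members' median had a median change of -0.10. The probes share arrays and a normalization, so this is a description only.

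The respiratory chain, whose core the mitochondrial ribosome helps to build, had a larger median change in the log ratio than the members, most clearly at 72 h. Of its 42 probes 10, 12 and 21 were called lower at 12, 24 and 72 h and 4, 2 and 0 higher. The medians were -0.22, -0.46 and -0.75. In Cy3 alone 0, 11 and 17 of these probes were called lower and 1, 4 and 0 higher. Their Cy3 medians were -0.095, -0.359 and -0.712, against -0.113, -0.395 and -0.451 for the members. The 71 probes for cytosolic ribosomal proteins, which share the task of translation but not the organelle, had medians of -0.08, -0.21 and -0.15. Of them 3, 3 and 5 were called lower and 5, 1 and 0 higher. In Cy3 alone 4, 15 and 3 were called lower and 4, 3 and 0 higher. Over all probes 6.02%, 6.26% and 5.80% were called lower and 4.90%, 3.79% and 4.80% higher. The lower share of all probes in Cy3 alone was 8.71%, 13.4% and 4.59%. The differences between these groups and the members were not tested.

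**Figure D5:**
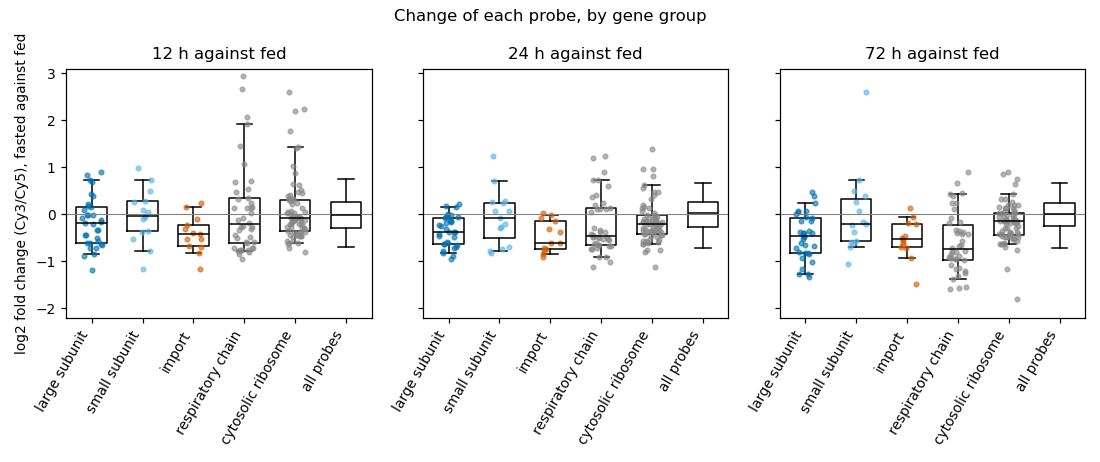
Change of each probe against the fed pools (log2, vertical axis) at 12, 24 and 72 h for the large-subunit, small-subunit and import genes, for respiratory chain and cytosolic ribosomal protein genes, and for all probes; boxes give quartiles and median, whiskers the 5th and 95th percentiles and points single probes. At 72 h the medians are -0.47, -0.21 and -0.52 for the member groups, -0.75 for the respiratory chain, -0.15 for cytosolic ribosomal proteins and 0.01 for all probes.

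Other genes of the pathway are given by list. Of 9 probes for mitochondrial translation factors and RNA enzymes 0, 1 and 1 were called lower at 12, 24 and 72 h and 0 higher (medians 0.11, -0.05 and -0.17). The gene concerned was Ict1, a peptidyl-tRNA hydrolase that is built into the large subunit, which changed by -0.87 ± 0.20 (SE; adjusted p = 0.017) at 24 h and by -0.97 ± 0.20 (adjusted p = 0.0061) at 72 h. Of 9 probes for import partners 1 was called lower at each time and 1, 1 and 0 higher (medians 0.11, -0.0052 and -0.20). These were the subunits of the matrix chaperonin. Hspe1 changed by -0.74, -0.72 and -1.79 (adjusted p = 0.00012 at 72 h) and Hspd1 by 0.94, 1.37 and 0.77, the last not called. In Cy3 alone 1, 0 and 0 probes of this list were called higher at 12, 24 and 72 h.

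Of 10 probes for proteases and prohibitins 1, 0 and 1 were called lower and 0, 0 and 1 higher (medians 0.30, 0.24 and -0.17). At 72 h Phb, a scaffold protein of the inner membrane, changed by 0.73 (adjusted p = 0.011) and 1 probe of Yme1l1, an inner-membrane protease, by -0.61 (adjusted p = 0.022). Of 6 probes for mitochondrial DNA transcription and replication 1, 0 and 1 were called lower and 0, 1 and 0 higher (medians -0.28, -0.16 and -0.37). Dguok, which salvages nucleosides for mitochondrial DNA, fell at 72 h (-0.99, adjusted p = 0.0048), Tk2, with a like task, was higher at 24 h (0.77) and 1 probe of Tfam, which packs and helps transcribe that DNA, was lower at 12 h (-0.70, against -0.16 for its other probe). Of 12 probes for regulators of mitochondrial biogenesis 1, 1 and 0 were called lower and 1, 0 and 1 higher (medians 0.13, 0.08 and 0.14). Esrra changed by -0.99 at 12 h and 1 probe of Gabpa by -0.83 at 24 h (0.13 for the other). Ppargc1, a coactivator of mitochondrial genes, changed by 1.13 at 12 h and 1.02 at 72 h (adjusted p = 0.033 and 0.047). Its pool 1 had no usable value at either time, and its fed pools read -0.11, 0.08 and -0.92. In Cy3 alone 0 probes of this list were called higher at 72 h.

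Some markers of other cell types in the whole intestine moved over the same times. Of 8 smooth muscle probes 5, 3 and 2 were called higher at 12, 24 and 72 h. In Cy3 alone 3, 3 and 1 were called higher and 1, 1 and 0 lower. The list's median change at 12 h was 0.63 in Cy3 and -0.55 in Cy5, the reference. Its median log ratio ran from -0.55 to -0.07 in the fed pools and 0.19 to 1.24 at 12 h. At 24 h it ran from 0.14 to 0.21 and at 72 h from -0.08 to 0.01. Of 4 B and plasma cell probes 0, 2 and 3 were called lower, the list's median log ratio running from 0.17 to 0.31 in the fed pools and from -0.73 to -0.47 at 72 h, with Igj, the joining chain of secreted antibodies, changing by -3.22. The goblet cell gene Agr2 changed by -1.45 at 72 h (adjusted p = 0.0019), while 0 of 4 enterocyte probes were called at that time, with changes of -0.30 for Vil, -0.41 for Apoa4, 0.64 for Apoa1 and 1.30 for Anpep. Anpep was called higher at 12 h (3.43, adjusted p = 0.016). It was at -0.81, -0.03 and -2.87 in the fed pools and at 0.81, 1.22 and 4.54 at 12 h. In Cy3 alone 0 of the enterocyte probes were called at 12 h. Of 3 Paneth cell probes 1, that of Mmp7, was called higher at 12 h (2.02, adjusted p = 0.04), and 0 in Cy3 alone. The list's median log ratio was 1.09, 0.46 and -2.03 in the fed pools. The exocrine pancreas gene Cpa1 was at -1.62, -1.11 and 0.78 there. Cpa1, 2 T cell probes and the adipose gene Fabp4 were not called against fed. In Cy3 alone 1 T cell probe was called lower at 24 and at 72 h, and Fabp4 higher at 12 h. Each of these markers was well above background on 7 to 12 of the 12 arrays. Their part in the changes of the members was not tested. From arrays of whole tissue alone, fewer cells of a type and less RNA per cell cannot be told apart. By staining, the paper found no significant difference between fed and longest-fasted mice in goblet cell number. The same held for the shares of volume taken by enterocytes and smooth muscle. The paper gave no such count for B and plasma cells.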

How the data were processed

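mRNA of whole small intestine was measured on 12 Agilent 60-mer mouse arrays (Cy3, pools of 2 mice; Cy5, fed reference). The authors scanned the arrays and extracted spots with Agilent's Feature Extraction; per the file headers, the deposited files hold median spot and background intensities of each dye and outlier flags. The deposited value table holds Feature Extraction's log10 ratios (Cy3/Cy5), with moved decimal points in places: 1822 cells were rescaled and 99 left out, and it served as an alternative only.

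Both dyes were background-corrected (normexp, offset 50, median signals), control, outlier and 91 retired spots left out, the 24 channels quantile-normalized together, and log2(Cy3/Cy5) was averaged per probe. Limma 3.58.1 (R 4.3.3) estimated 1 mean per time point from all 12 arrays, followed by Benjamini-Hochberg correction over all probes with a value (at most 20280; threshold 0.05); the steps were tested on simulated data. Levels and calls of the dyes alone were fitted the same way. The paper's 2 thresholds (unadjusted p under 0.01 and at least 1.4-fold, applied here to limma's p-values without its further criteria), other background corrections and normalizations, Cy3 alone, and leaving out each array were alternatives.

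Any member could be named; values per pool were given for the 6 called members with the largest fall and rise at each time whose pools did not overlap, for each called import gene and for genes whose probes differed. A gene's brightest probe gives its value. Members, gene lists and motifs were chosen with earlier results of these data known. Each time point has 3 pools, whose number limits the precision. The p-values set a change against the spread between pools, which limma estimates over all time points and moderates across probes. Gene numbers in the files matched RefSeq (GRCm38) for all 53 genes. Arrays of the same time point had at most 1.31% of spots equal in Cy3.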

Additional observations from a re-analysis of the deposited data

Results flagged for a closer look

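The change against fed differed between fasted times, by limma's contrast of the log ratios of the 2 times (adjusted p under 0.05), for 14 combinations of probe and contrast. From 12 to 72 h the values were -1.18 for Mrpl15, -0.68 for Mrpl36, -1.06 and -1.30 for the brighter and dimmer probe of Mrpl38, -1.10 for Mrpl51, 1.86 for the brighter Mrps25 probe, 0.75 for Mrps6 and -0.93 for Tomm40. From 24 to 72 h they were -0.73 for Mrpl36, -1.04 for Mrpl51, 1.88 for the brighter Mrps25 probe, 1.03 for the dimmer Mrps7 probe and -0.67 for Tomm40. The dimmer Mrps7 probe had a change of -1.06 from 12 to 24 h, the 1 contrast among these that stays within a file layout. In the others layout and time cannot be told apart. Under every alternative and with each array left out 2 of the 8 calls from 12 to 72 h were kept, those of Mrpl15 and the dimmer Mrpl38 probe, with 0 of 5 from 24 to 72 h and 0 of 1 from 12 to 24 h.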

How the results depend on the processing

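Of 18 members called at 72 h against fed, 9 kept their call and direction under every alternative and with each array left out, while 0 of 15 did at 12 h and 0 of 13 at 24 h. Members called lower at 12 h, 13 in the values above, numbered 4 with the authors' value table, 4 with Cy3 alone, 0 with only the arrays of the 2 times (17 at an unadjusted p under 0.05 in limma) and 2 to 19 with 1 array left out. Those at 24 h, 12 above, numbered 7 without background correction, 26 with median centring, 19 with only the 2 times and 0 to 22 with 1 array left out. Those at 72 h, 17 above, numbered 26 with median centring, 27 with only the 2 times and 8 to 29 with 1 array left out. With the replicate block the counts were 7, 9 and 14 at 12, 24 and 72 h; pools with the same number came from different mice, and their deviations from the time point means correlated between -0.281 and 0.128, so the numbers do not pair them. The median change at 12 h (-0.21) was -0.515 with median centring and -0.113 with Cy3 alone, that at 24 h (-0.31) was -0.189 without background correction and -0.53 with median centring, and that at 72 h (-0.464) was -0.331 and -0.675; with 1 array left out these medians ran from -0.292 to -0.181, from -0.379 to -0.282 and from -0.495 to -0.383. With Cy3 alone the change turned for Mrpl36 at 12 h (0.026), for Timm8a1 at 12 h (0.0306) and for the dimmer Mrps7 probe from 24 to 72 h (-0.0132). The cause was not tested in these cases. Signals over background were 3.36 to 6.00 in Cy3 and 1.65 to 2.12 in Cy5, which limits small ratios.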
